A study of Mus musculus with 4 samples.

Results

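The 10 immediate-early and AP-1 genes Fos, Fosb, Fosl1, Jun, Junb, Jund, Egr1, Ier2, Ier3 and Atf3 were read on every probe set whose platform annotation gives the gene as its only symbol. They had 13 of the 45037 probe sets that are not array controls. Fosl1, Jun and Jund had more than 1 probe set, and probe sets of a gene share a transcript and are not replicates. Of the 13 probe sets, 11 passed the filter on dim probe sets, a mean log2 value over the 4 arrays of at least 5.42, and entered the test with 22519 probe sets in all. The 11 covered all 10 genes. The genes were chosen by name as a reading of stress from tissue dissociation and sorting, and the rule picks probe sets by symbol, not by value.

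The arrays are Affymetrix Mouse Genome arrays of sorted basal cells, taken from tail epidermis of the CD-1 strain. The K14CREER mice carried a tamoxifen-inducible Cre driven by the keratin 14 promoter, which is active in basal keratinocytes, and were given 1 ug of tamoxifen. The InvCREER mice carried the same kind of Cre driven by the involucrin promoter, which in the epidermis is known mainly for activity in differentiating keratinocytes, and were given 10 ug. Both lines carried a RosaYFP reporter that Cre switches on, and YFP-positive cells with high alpha6 integrin and without CD34 on the surface were collected from both. Skin was held in cold trypsin overnight and the cells were sorted straight into lysis buffer, per the labels' protocols. There were 2 arrays of each line, called K14CREER 1 and 2 and InvCREER 1 and 2 as in the titles. The titles give 3.5 days after induction and the treatment protocol gives 4 days. The dose differs with the Cre line, so the effects of both cannot be told apart, and no unsorted or undissociated skin is among the 4 arrays. Nothing in the labels ties each array to its own mouse, so p-values here reflect only how far these samples spread, and that spread may be technical. In such bulk samples fewer cells of a type and less RNA per cell cannot be told apart.

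AP-1 is a dimer of basic leucine zipper proteins, usually a Jun protein with a Fos, Jun or ATF protein, and binds short DNA elements in its target genes. Immediate-early genes are transcribed within minutes of a stimulus without new protein synthesis, mostly through ERK, JNK and p38 kinases acting on SRF, ETS-family and CREB-family factors at their promoters, and their mRNAs decay fast. Enzymatic dissociation and cell sorting are themselves known to induce many of them, and in the epidermis AP-1 also takes part in the control of differentiation genes. A level of these mRNAs in sorted cells can therefore hold both the state of the tissue and the handling. The 4 arrays give no value that separates those sources.

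The sort was checked on 4 genes. Krt14, the keratin of basal cells, had a mean log2 value of 14.16 ± 0.02 (SD, n = 2 arrays) in K14CREER and 13.83 ± 0.02 (n = 2) in InvCREER. Itga6, which encodes the alpha6 integrin of the gate, had 12.40 ± 0.02 and 11.69 ± 0.11. Ivl and Cd34 stayed under the filter on their mean. However, Ivl read 6.23 on K14CREER 2 and 4.58 to 5.06 on the others, and Cd34 read 6.07 on K14CREER 1 and 3.59 to 3.88 on the others. K14CREER 1 and InvCREER 1 each stand apart in some marker genes of other cell types, and those values are given beside the results they touch.

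None of the 11 tested probe sets of these genes was called between the lines by limma at a Benjamini-Hochberg adjusted p under 0.05, where 216 of all 22519 tested probe sets were called (0.959%), 154 higher and 62 lower in InvCREER. At an unadjusted p under 0.05 limma gave 1 of the 11, Fos, and 3133 of all tested (13.9%). Adjusted p-values of the 11 ran from 0.282 to 0.998. With a probe set of each gene taken by its highest mean, 6 genes had a higher mean in InvCREER and 4 a lower one. The median difference over the 10 genes, InvCREER minus K14CREER, was 0.11 log2 units against -0.01 over all tested probe sets, and its size without sign had a median of 0.28 against 0.21. An exact permutation test of 2 against 2 arrays could not give a 2-sided p under 0.333. The intervals of the differences are wide, so that a difference of about 2-fold was not excluded for Fosl1, Atf3, Egr1 and Junb.

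**Figure D1:**
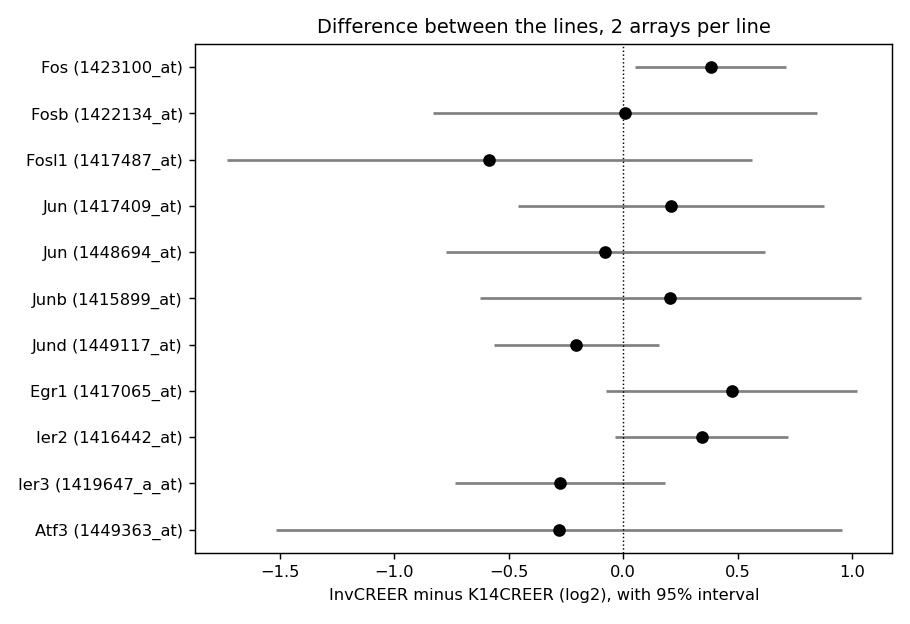
Difference between the lines for the 11 tested probe sets of the 10 genes, InvCREER minus K14CREER in log2 units. Points are the fitted differences and bars their 95% confidence intervals from limma, and every interval but that of Fos, 0.05 to 0.71, crosses 0.

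The Fos family supplies the partners that cannot pair among themselves and need a Jun protein. Fos, the prototype immediate-early gene, read 12.04 and 12.25 on the K14CREER arrays and 12.66 and 12.40 on the InvCREER arrays, in log2 units. Both InvCREER arrays lay above both K14CREER arrays, by 0.38 (SE 0.14, limma adjusted p = 0.282). The interval of that difference ran from 0.05 to 0.71, and its direction held with any 1 array left out, at 0.25 to 0.51. The 250 bases before its start site are shown because Fos had the lowest p of the 10 genes and its core promoter lies there. They were read from a RefSeq promoter table of GRCm38.p6, and lie on the forward strand at chr12:85473640-85473889, with the TATA box TATAAA in capitals.
Fos: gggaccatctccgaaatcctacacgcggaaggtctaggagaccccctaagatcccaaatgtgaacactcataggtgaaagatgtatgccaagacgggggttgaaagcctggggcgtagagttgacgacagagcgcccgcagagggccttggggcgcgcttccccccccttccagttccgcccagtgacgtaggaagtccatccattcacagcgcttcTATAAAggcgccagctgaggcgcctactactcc

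The motif search covered the window of the table, from 250 bases before the start site to just after it, on both strands, and a match is a description, not a bound site. In Fos the TATAAA began at position -33 from the start site, and 13.6% of all 32851 promoters in the table hold these letters. Of the 10 genes, 7 had a promoter in the table: Fos, Fosb, Jun, Junb, Jund, Ier3 and Atf3. Fos and Junb held TATAAA. None of the 7 held the serum response element (the CArG box by its exact letters), the full cAMP response element TGACGTCA or the AP-1 site TGACTCA or TGAGTCA, which 1.63%, 1.79% and 5.20% of all promoters hold. This says only that these letters are not within that window, and the serum response element known for Fos lies upstream of it.

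Fosb, a second Fos protein with a known splice form that persists in stimulated neurons, read 6.85 and 6.45 in K14CREER and 7.09 and 6.23 in InvCREER. Its arrays of 1 line lay farther apart, by 0.40 and 0.86, than the lines did, by 0.01 (SE 0.35). Fosl1, which encodes Fra-1 and is linked with migrating and wounded keratinocytes, read 6.64 and 5.15 in K14CREER and 5.46 and 5.16 in InvCREER. K14CREER 1 alone was high, 2.80-fold above K14CREER 2, and the other 3 arrays lay at 5.15 to 5.46. The line difference of -0.58 (SE 0.47) became 0.16 without K14CREER 1. A mean over the 3 other arrays would lie under the filter, so Fosl1 entered the test through that array. Its second probe set read 4.38 to 4.54 on all 4 arrays, under the filter. Fosl2, the remaining member of the family, which was read for comparison, had 10.64 and 10.30 in K14CREER and 10.80 and 10.38 in InvCREER, a difference of 0.12 (SE 0.21).

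Jun proteins pair with each other, with Fos proteins and with ATF proteins. Jun, the founding member and a direct target of JNK signalling, read 10.38 and 10.36 in K14CREER and 10.99 and 10.17 in InvCREER on its brighter probe set. The InvCREER arrays enclosed the K14CREER arrays, and the line difference was 0.21 (SE 0.28). Its second tested probe set read 7.92 and 7.26 in K14CREER and 7.57 and 7.46 in InvCREER, a difference of -0.08 (SE 0.29). The 2 probe sets of Jun disagree on the sign of the difference and on which array is highest, InvCREER 1 for the first and K14CREER 1 for the second.

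Junb, which in keratinocytes often acts against Jun and restrains inflammation, read 8.55 and 8.21 in K14CREER and 9.05 and 8.12 in InvCREER. InvCREER 1 was highest and InvCREER 2 lowest, 0.92 log2 units apart, and the line difference was 0.21 (SE 0.34). Jund, the Jun protein known for steady expression in resting cells, read 11.86 and 11.67 for K14CREER, then 11.70 and 11.42 for InvCREER. The lines overlapped by a narrow margin and the difference was -0.20 (SE 0.15). The second probe set of Jund read 4.55 to 4.95, under the filter.

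Egr1, a zinc finger immediate-early factor induced through SRF and ETS factors, read 10.60 and 10.94 for K14CREER, then 11.52 and 10.97 for InvCREER. The lines did not overlap, but the nearest arrays were 0.03 log2 units apart, and most of the difference of 0.47 (SE 0.23, limma adjusted p = 0.442) came with InvCREER 1. Ier2, an immediate-early gene whose protein acts in the nucleus, read 10.30 and 10.43 in K14CREER and 10.75 and 10.67 in InvCREER. Its arrays of a line were close, 0.13 and 0.08 apart, and the InvCREER arrays were higher by 0.34 (SE 0.16, limma adjusted p = 0.412). Ier3, a stress-induced gene of cell survival and ERK signalling, read 10.41 and 10.15 in K14CREER and 9.89 and 10.12 in InvCREER. It was the one of the 10 genes with both InvCREER arrays below both K14CREER arrays. The nearest arrays of the lines were 0.03 apart, and the difference of the means was -0.28 (SE 0.19, limma adjusted p = 0.638).

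Atf3, a stress-induced member of the ATF and CREB family, read 8.02 and 6.38 for K14CREER, then 6.87 and 6.97 for InvCREER. The highest and the lowest value were both in K14CREER, 1.64 log2 units or 3.11-fold apart, while the InvCREER arrays differed by 0.10. The line difference of -0.28 (SE 0.51) became 0.54 without K14CREER 1.

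Probe sets without overlap between the lines were counted for the 11. The 3 of Fos, Egr1 and Ier2 were higher in InvCREER on both arrays, where 20.0% of all tested probe sets were. The 1 of Ier3 was lower, where 22.1% were. For none did a line have both its arrays 1.5-fold or more beyond those of the other line, against 6.10% of all tested. These counts lie near or under the shares over all probe sets and are no result about the genes.

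**Figure D2:**
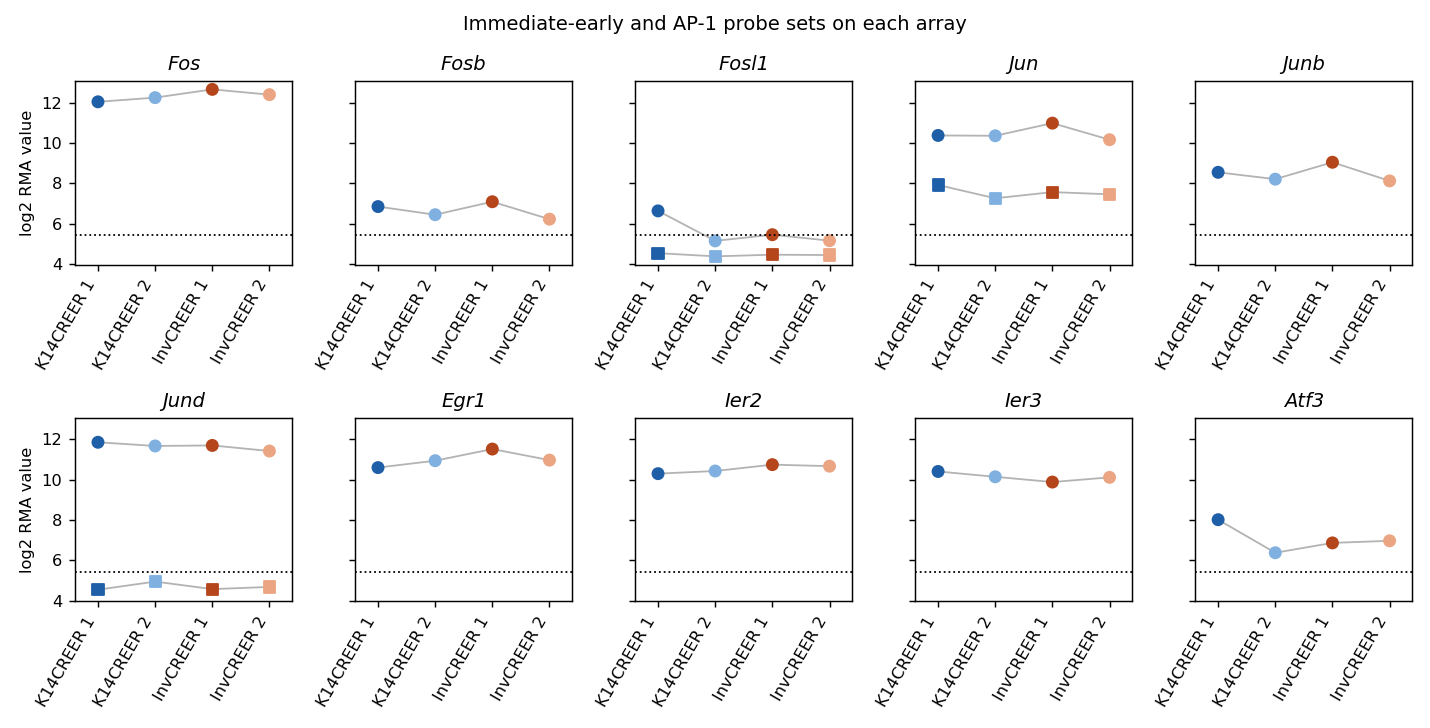
Log2 values of the 13 probe sets of the 10 genes on the 4 arrays, 1 panel per gene, with the filter at 5.42 as a dotted line. Points are single arrays, squares mark the dimmer probe set of a gene, and grey lines join the values of a probe set. Fosl1 and Atf3 are highest on K14CREER 1, at 6.64 and 8.02, and the brighter probe sets of Fos, Jun, Junb and Egr1 on InvCREER 1.

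The arrays of a line differed for these genes about as much as the lines did. The larger of the gaps between arrays of a line exceeded the difference between the lines in 7 of the 10 genes, and in 69.8% of all tested probe sets. All 11 tested probe sets were highest on K14CREER 1 or InvCREER 1, a pattern noticed in these data, and 48.1% of all tested probe sets were. By gene, 6 were highest on InvCREER 1 and 4 on K14CREER 1, where the shares over all tested probe sets were 25.8% and 22.3%. The median of array 1 minus array 2 over the 10 genes came to 0.22 for K14CREER and 0.29 for InvCREER, against -0.05 and -0.04 over all tested probe sets. The mean level of the 10 genes was 9.57 on K14CREER 1 and 9.60 on InvCREER 1, and 9.20 and 9.22 on the arrays numbered 2.

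The genes high on the 2 arrays were not the same. In K14CREER, Fosl1 and Atf3 were at least 2-fold higher on array 1 than on array 2, as were 1.47% of all tested probe sets. Only 0.449% of tested probe sets had a larger step than Fosl1 and 0.342% a larger one than Atf3. Both were also at least 2-fold higher on K14CREER 1 than on each of the other arrays, as were 104 tested probe sets (0.462%). In InvCREER the largest steps were those of Junb (0.92), Fosb (0.86) and Jun (0.82). No member reached 2-fold there, and 3.31% of all tested probe sets did. A step larger than that of Junb was found in 4.00% of tested probe sets.

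**Figure D3:**
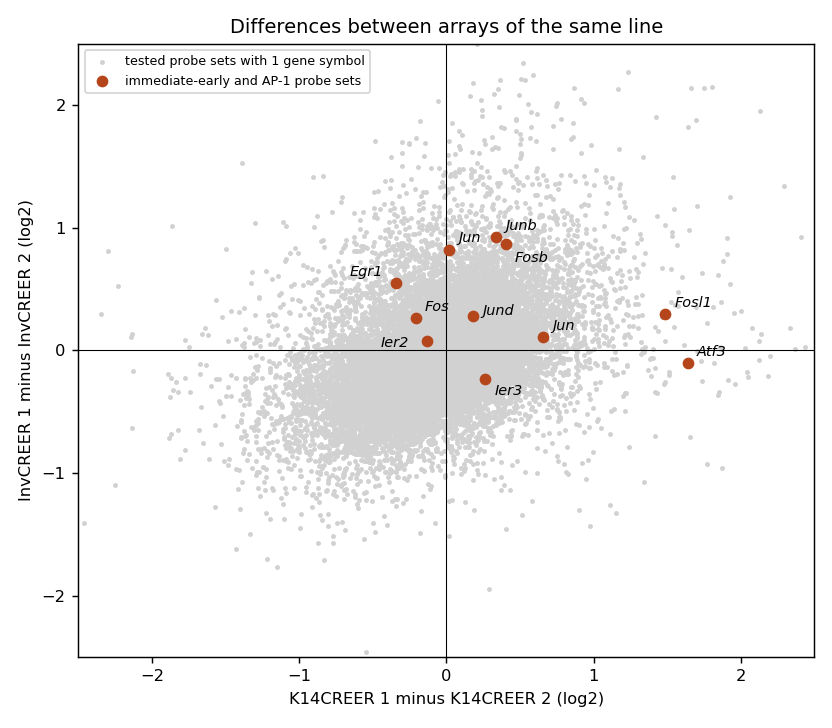
Array 1 minus array 2 in log2 units, with K14CREER on the horizontal axis and InvCREER on the vertical axis. Grey points are 19707 tested probe sets with 1 gene symbol, of which 25 lie outside the axes, and coloured points are the tested probe sets of the 10 genes. Atf3 at 1.64 and Fosl1 at 1.49 lie far to the right, and Junb, Fosb and Jun lie highest.

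Values of RNA quality and of other cell types moved with these arrays. The difference between the 3' and the 5' probe sets of Actb, a measure of how short the labelled copies are, measured 0.94 and 0.68 for K14CREER, then 1.24 and 0.77 for InvCREER. For Gapdh it was 0.33 and 0.07, then 0.74 and 0.05. It was thus larger on both arrays numbered 1. The hybridization controls, added in the same amount to each array, averaged 10.46 and 10.01 on the K14CREER arrays, then 10.44 and 10.11 for InvCREER, also higher on the arrays numbered 1. The part of these in the immediate-early pattern was not tested.

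InvCREER 1, where Jun, Junb, Egr1 and Fos were highest, was also the highest array for all 9 sebaceous gland markers, with means of 8.18 and 7.72 on the K14CREER arrays, then 10.81 and 9.28 for InvCREER. It was highest too for all 7 tested markers of Langerhans and myeloid cells, with means of 5.84, 5.51, 8.06 and 6.57 in the same order. Itgax, Ptprc and Lyz2 of that list were under the filter. Cd207 and Ctss had K14CREER means of 5.07 and 4.33, under the filter, and so entered the test through InvCREER. So did Scd3 and Pparg of the sebaceous list, with K14CREER means of 5.24 and 4.85. Both lists were higher on both InvCREER arrays than on either K14CREER array, and their part in the values of Fos, Egr1 and Ier2 was not tested. Mean levels of the 10 basal keratinocyte markers were 12.40, 12.30, 11.52 and 11.39, and those of 7 tested suprabasal markers 9.67, 9.81, 11.28 and 11.55. The part of basal and suprabasal cells in the values of Jun and Junb was not tested. The 5 tested hair follicle markers had means of 8.49, 8.02, 8.89 and 8.05. That is the same order of arrays as the mean of the 10 genes, but single markers differed. Krt79 at 11.94, Sox9 at 8.22 and Lrig1 at 8.43 were highest on InvCREER 1, and Krt17 at 9.33 on K14CREER 1. Lgr6, also highest on K14CREER 1, read 8.47 and 8.34 in K14CREER and 6.67 and 6.55 in InvCREER. It was the 1 called gene of the list (difference -1.79, SE 0.23, limma adjusted p = 0.0292). Lgr5, Lhx2 and Cd34 of that list were under the filter. The part of follicle cells in the pattern was not tested.

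K14CREER 1, where Fosl1 and Atf3 stood out, was the highest array for all 4 tested dermal fibroblast markers, with means of 9.01, 8.18, 7.52 and 7.35. These means do not mark K14CREER 1 alone. Sparc, at 12.19, 12.11, 9.73 and 9.85, and Dcn, at 9.50, 9.07, 7.09 and 7.75, differed mostly between the lines. Vim read 7.63, 6.35, 7.45 and 6.39, high on both arrays numbered 1, and Col1a2 read 6.70, 5.17, 5.80 and 5.41. Col3a1, a defining collagen of fibroblasts, was under the filter at 6.12, 3.95, 4.43 and 3.73. Col1a1, Lum and Pdgfra were under the filter too, at 4.04 to 5.03. Of the 5 Merkel cell markers only Krt8 was tested. It read 7.44 on K14CREER 1 and 5.08 to 5.34, under the filter, on the others. Krt18, under the filter on its mean, read 7.69 against 4.20 to 4.40. The more specific Merkel markers Krt20, Atoh1 and Isl1 were under the filter too. Thy1, found on T cells and fibroblasts, read 9.18 on K14CREER 1 and 6.64 to 7.80 on the others. The part of these cells in the values of Fosl1 and Atf3 was not tested.

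Genes of the same pathway were read from lists. Other immediate-early genes had 43 of 48 genes tested and none called by limma, and had a median difference of 0.02. Without overlap 8 were higher and 7 lower in InvCREER, shares near or under the 20.0% and 22.1% of all tested probe sets. Ptgs2, the inducible prostaglandin synthase, read 8.81 and 6.51 in K14CREER and 5.52 and 4.17 in InvCREER (difference -2.81, SE 0.78, limma adjusted p = 0.169). Egr3, a relative of Egr1, read 6.85 and 6.17, then 9.88 and 8.48 (difference 2.67, SE 0.49, adjusted p = 0.0672). Both had lines that did not overlap, in opposite directions. The InvCREER mean of Ptgs2, 4.85, lay under the filter, so it entered the test through K14CREER, where it is high.

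Gadd45b, a stress and growth-arrest gene, read 8.17 and 8.20 in K14CREER and 9.22 and 9.84 in InvCREER (difference 1.34, SE 0.26, limma adjusted p = 0.0802). Cxcl1, a neutrophil chemokine, read 10.52 and 6.98, then 7.39 and 6.75. It was 11.6-fold higher on K14CREER 1 than on K14CREER 2, and the other 3 arrays lay close together. With the stricter filter at the 75th percentile limma called Egr3, Gadd45b and Ier5 as higher in InvCREER, among 405 called of all tested probe sets. Without K14CREER 2 it called Cxcl1, Ptgs2 and Sgk1 as lower. Without InvCREER 1 it called 2 of the list as higher and 2 as lower, and without InvCREER 2 Egr3 as higher.

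The list of ERK phosphatases and feedback genes, many of them induced by ERK and then limiting it, had 14 of 15 genes tested. Limma called 1 of these, where it called 0.959% of all tested probe sets. Dusp6, the cytoplasmic ERK phosphatase, fell from 9.94 and 9.28 in K14CREER to 7.77 and 7.50 in InvCREER (difference -1.98, SE 0.29, limma adjusted p = 0.0431). Dusp6 was not called without K14CREER 1 (difference -1.64, limma adjusted p = 0.132), without a variance trend (0.0685) or after cyclic loess (0.0557). With no overlap between the lines, 9 of the 14 were lower in InvCREER and 1 higher, where 22.1% and 20.0% of all tested probe sets were. The higher one, Dusp4, had both K14CREER values under the filter and so entered the test through InvCREER, where it is high. Among the 9, Ier5l had both InvCREER values under the filter and entered through K14CREER. Dusp14, also among the 9, had its nearest arrays of the lines only 0.0009 log2 units apart. The list's median difference was -0.64, against -0.01 over all tested. Phlda1 read 9.47 and 6.24 in K14CREER and 6.89 and 6.02 in InvCREER, Errfi1, an inhibitor of EGF receptor signalling, 11.11 and 9.72, then 8.93 and 9.14. Both were high on K14CREER 1, whereas Dusp4, another ERK phosphatase, was highest on InvCREER 1 at 7.33, against 5.17, 4.67 and 5.65 on the others.

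Other basic leucine zipper partners of AP-1 had 20 of 26 genes tested, Atf3 among them, and none called by limma, with a median difference of -0.11. Jdp2, a repressor that pairs with Jun, read 6.78 and 7.19 in K14CREER and 5.52 and 5.39 in InvCREER (difference -1.53, SE 0.25, adjusted p = 0.0544). Cebpb, a factor of stress and differentiation, read 10.26 and 9.76, then 11.50 and 10.57 (difference 1.03, SE 0.33). Nfe2l1 differed by 1.00 (SE 0.33) the same way, and Maff, a small Maf protein, was high on K14CREER 1 alone, at 7.58 against 6.16 to 6.47. Limma called Jdp2 as lower without InvCREER 1, and Jdp2 as lower with Cebpb and Nfe2l1 as higher without InvCREER 2.

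Upstream kinases and promoter factors had 18 of 26 genes tested and none called by limma, with a median difference of -0.14. Elk4, an ETS factor that binds beside SRF, read 11.14 and 11.24 in K14CREER and 10.66 and 10.57 in InvCREER (difference -0.57, SE 0.14, adjusted p = 0.137). Rps6ka5, a kinase downstream of ERK and p38, differed by -0.69 (SE 0.43), Map2k4, a kinase upstream of JNK, by 0.57 (SE 0.21) and Map3k5, a stress-activated kinase, by -0.45 (SE 0.26). No gene of that list was 2-fold higher on K14CREER 1 than on K14CREER 2, where 1.47% of all tested probe sets were. Heat shock genes, which dissociation is also known to induce, had 13 of 17 tested and none called by limma, with a median difference of 0.02.

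Hspa1a, an inducible HSP70 gene, read 9.52 and 9.61 in K14CREER and 10.24 and 10.24 in InvCREER (difference 0.67, SE 0.17, limma adjusted p = 0.140). Hspb1 read 11.79 and 10.97, then 11.75 and 12.54, with its highest value on InvCREER 2. None of the 13 was 2-fold higher on K14CREER 1 than on K14CREER 2. Of all tested probe sets 1.47% were, so that none among 13 is no result about the list. On K14CREER 1 5 were highest and on InvCREER 1 5, where the shares over all tested probe sets were 22.3% and 25.8%. Hspa1b differed by 0.29 (SE 0.10) and Hsp90aa1, an inducible HSP90 gene, by -0.29 (SE 0.12). Hspa1a and Hspa1b are near-identical copies, so that their probe sets may read both.

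AP-1 target genes of keratinocytes had 22 of 32 genes tested, with a median difference of -0.03. Of the 22, limma called 1 as higher and 3 as lower in InvCREER. Over all tested probe sets it called 0.959% in either direction. Mmp3, a matrix metalloproteinase, fell from 8.19 and 8.55 in K14CREER to 5.68 and 6.17 in InvCREER (difference -2.44, SE 0.28, limma adjusted p = 0.0230). Mmp13, a collagenase, fell from 7.29 and 6.47 to 4.59 and 4.21 (difference -2.48, SE 0.33, limma adjusted p = 0.0353). Both its InvCREER values lie under the filter, so it entered the test through K14CREER, where it is high. Lamb3, a laminin chain of the basement membrane, fell from 11.04 and 10.42 to 9.12 and 8.81 (difference -1.77, SE 0.26, limma adjusted p = 0.0440). Krt1, a keratin of differentiating cells, rose from 12.50 and 12.13 to 13.48 and 13.74 (difference 1.29, SE 0.15, limma adjusted p = 0.0248).

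Lamb3 is also on the basal marker list and Krt1 on the suprabasal one. The fall of Mmp3, Mmp13 and Lamb3 was not called without K14CREER 1, at limma adjusted p-values of 0.0566, 0.0566 and 0.135, nor that of Mmp3 without K14CREER 2 (adjusted p = 0.0647). Without a variance trend limma did not call Krt1, Mmp13 and Lamb3, at adjusted p-values of 0.0932, 0.0570 and 0.0757, and after cyclic loess it did not call Lamb3 (0.0580). Without K14CREER 1 the differences of Krt1, Mmp3, Mmp13 and Lamb3 were 1.48, -2.62, -2.07 and -1.46. These mRNA levels do not measure AP-1 protein or its binding.

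The 100 bases before the start sites of Mmp3 and Mmp13 are shown because both genes were called and hold an AP-1 site there, in capitals. They come from the RefSeq table of GRCm38.p6, on the forward strand, Mmp3 at chr9:7445722-7445821 with the site at position -46 and Mmp13 at chr9:7272414-7272513 with the site at -35.
Mmp3: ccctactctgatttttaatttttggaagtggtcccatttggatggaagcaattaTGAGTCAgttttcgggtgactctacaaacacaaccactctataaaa
Mmp13: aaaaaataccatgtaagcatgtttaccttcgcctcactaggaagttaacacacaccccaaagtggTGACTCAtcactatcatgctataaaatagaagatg

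Of the 23 genes of the target list with a promoter in the table, 9 held TGACTCA or TGAGTCA within the same window, against 5.95% of all genes in the table. They were Ivl, Lor, Mmp10, Mmp13, Mmp1a, Mmp1b, Mmp3, Plaur and Sprr1a. The list was drawn from genes known as AP-1 targets, so the share is a description of the list.

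Of 140 tested genes in the pathway lists and among the 10 genes, 12 were at least 2-fold higher on K14CREER 1 than on each other array, a selection made after the values were seen. Over all tested genes it was 58 of 11270 (0.515%). They were Atf3, Fosl1, Creb5, Maff, Cxcl1, Ptgs2, Hbegf, Socs3, Sgk1, Phlda1, Errfi1 and Mmp10. Fosl1, Ptgs2 and Mmp10 had means over the other 3 arrays under the filter and so entered the test through K14CREER 1, which leaves 9 that did not. The markers Krt8 and Thy1 met the same rule. Krt8 lay under the filter on the other arrays, at 5.08 to 5.34, and so entered the test through K14CREER 1. Hbegf, an EGF receptor ligand, read 9.07 on K14CREER 1 and 7.23 to 7.64 on the others, and Socs3, a brake on cytokine signalling, 8.55 and 6.76 to 7.14. Fos, Egr1 and Ier2 had their lowest value of the 4 arrays on that same array. Dusp1, often read as a marker of dissociation, read 11.72 and 10.90 for K14CREER, then 11.52 and 10.95 for InvCREER, higher on both arrays numbered 1.

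**Figure D4:**
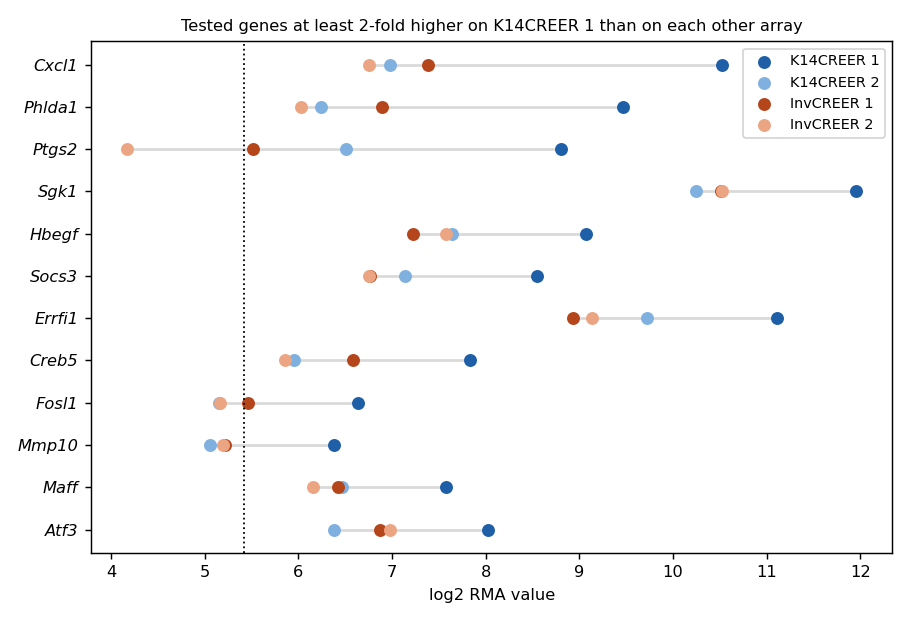
Log2 values on the 4 arrays of the 12 genes at least 2-fold higher on K14CREER 1 than on each other array, chosen by that rule from the pathway lists and the 10 genes. Points are single arrays. Cxcl1 shows the widest step, from 10.52 on K14CREER 1 to 6.75 to 7.39 on the others.

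The mean of the 10 centred profiles came to 0.17 and -0.20 for K14CREER, then 0.20 and -0.17 for InvCREER. The genes nearest to it by Euclidean distance over the 4 arrays were Sgta, Qsox1, Lad1, Jmjd6 and Arvcf, at distances of 0.0390 to 0.0594. Such a profile was common, and 279 of 11260 other genes (2.48%) correlated with it at r of at least 0.95. Over 4 arrays that likeness is a description.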

How the data were processed

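RNA of sorted basal cells was measured on 4 arrays. Per the labels' protocols, each array took 100 ng of total RNA, labelled by the authors by 3' in vitro transcription. RMA and Affymetrix Expression Console 1.1 are named in the submitters' processing notes. Deposited values are log2 intensities, and the medians of the arrays ran from 5.40 to 5.44. RMA brings all arrays to the same distribution, which hides any change in total RNA. The number of arrays limits the precision.

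Of 45101 probe sets, 64 controls were set aside. Of the other 45037, 34945 had 1 symbol, 932 several and 9160 were unnamed. No gene was named from several symbols. Looking symbols up in a RefSeq table of GRCm38.p6 changed 0. Probe sets with a mean at or above the median of the 45037 were tested. The lines were compared in R 4.3.3 with limma 3.58.1 (lmFit, eBayes with a variance trend), 2-sided, adjusted by Benjamini-Hochberg over all 22519 tested. Differences are InvCREER minus K14CREER with the moderated SE. The script was tested on simulated data.

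The members and lists were chosen with earlier results of these data known. Named were every member, up to 4 genes of each list (called ones first, then the largest differences), any further list gene said to have passed, the 5 nearest profiles and 4 checks. Dusp1, Dusp14, Ier5l, Hbegf, Socs3 and the cell type markers other than the checks were named after their values were seen. Alternatives changed the filter, scaling, variance model, threshold, array weights and probe set choice, added a replicate block, or left out each array in turn. Figures were drawn with matplotlib 3.10.9.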

Additional observations from a re-analysis of the deposited data

How the results depend on the processing

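No member probe set was called under any setting tried, and the lowest adjusted p of a member, by limma, was 0.0868 for Egr1 and 0.0889 for Fos, both without InvCREER 2. The number of probe sets called of all tested was 216, and became 405 with the stricter filter, 122 without a variance trend, 1390 with the replicate number as a block, 692 at an adjusted p under 0.10, and 82 to 981 with 1 array left out. With no filter, a robust trend, array weights, cyclic loess or after dropping probe sets shared by several transcripts it was 206 to 230. The numbers in the titles gave a correlation of 0.380 between the array 1 minus array 2 differences of the lines across tested probe sets. The labels do not say what the numbers share, so the block is a hint from the data. The median difference over the 10 genes, 0.11, ran from -0.22 (without InvCREER 1) to 0.41 (without InvCREER 2) with 1 array left out. Leaving out 1 array turned the sign for 5 genes: Fosb ran from -0.42 to 0.44, Fosl1 from -1.33 to 0.16, Jun from -0.20 to 0.62, Junb from -0.26 to 0.67 and Atf3 from -1.10 to 0.54. Fosl1 and Atf3 turned without K14CREER 1, Jun and Junb without InvCREER 1, and Fosb without K14CREER 2 (-0.19) or InvCREER 1. Fos, Egr1, Ier2, Jund and Ier3 kept their direction in every setting in which they were fitted. Fosb, Fosl1 and Atf3 were under the stricter filter. A line left with 1 array took its spread from the other line. Detection calls were not used here, so low values such as those of Fosl1 cannot be told from background.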
